A study of Mus musculus with 28 samples.

Results

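The 10 genes described here carry out the uptake, intracellular binding and activation of fatty acids. They were taken by gene name: the surface receptors Cd36 and Scarb1, the transport proteins Slc27a2 and Slc27a4, the binding proteins Fabp1 and Fabp2, and the acyl-CoA synthetases Acsl1, Acsl3, Acsl5 and Acsbg1. The table of BMP-treated organoids lists 29413 genes and that of Tgfb-treated organoids 55416. Each holds all 10, and all 10 passed the filter on low values in both. Acsbg1 passed it only through ligand-treated samples, and Cd36 in the Tgfb table only through the controls, so each had to differ there, and their places in the counts are no support for those counts. The samples were wild-type C57BL/6 mouse small-intestinal organoids, which are epithelial cultures grown from crypts in a gel matrix. All were first kept in ENR medium, which lacks added BMP or Tgfb. With the BMP ligands there were 4 untreated controls, 4 samples given recombinant BMP2 and 3 each for BMP3, BMP4, BMP5 and BMP7. Tgfb had 3 treated samples and 3 untreated controls of its own. Each ligand was given at 500 ng/ml for 24 h, per the labels. All groups shared the genotype, so no allele differed between them, and the labels give no age of the animals.

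Long-chain fatty acids released from dietary fat enter enterocytes, the absorptive cells of the villus, through the brush border membrane. Inside the cell they are held by small binding proteins and joined to coenzyme A, which traps them and commits them to triglyceride, phospholipid or oxidation. BMP ligands are secreted signals that are known to be strongest towards the villus tip, where enterocytes mature, and Tgfb is a related ligand with its own receptors.

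BMP4 raised 9 of the 10 genes, and Slc27a2 was the one that did not pass the test. BMP2, at the same dose and time, lowered Cd36, Fabp1, Slc27a2, Acsl1 and Acsl5 and raised Slc27a4, Scarb1, Acsl3 and Acsbg1. Acsbg1 was close to absent in untreated organoids and was highest with BMP2, while Fabp1 with BMP2 was at 1943 ± 859 normalized counts (SD, n = 4) against 89000 ± 28000 (SD, n = 3) with BMP4. Tgfb lowered Cd36, Fabp1, Fabp2, Slc27a2 and Acsl1 and raised Slc27a4, Acsl3 and Acsbg1.

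In the BMP table the values are normalized counts, that is, gene counts divided by a size factor per sample. They are not divided by gene length, so a gene is compared here only with itself across groups. The counts behind them came to about 21357705 to 24780732 reads per sample, totals that are approximate because high values were deposited rounded. A gene was called where its adjusted p, from limma on log2(value + 1) with Benjamini-Hochberg adjustment over all genes tested, was under 0.05, and a log2 change understates the change of low genes. The labels do not say that replicates came from separate animals or cultures, so the p-values measure the spread between these samples, which may be technical. In whole organoids, fewer cells of a type and less RNA per cell cannot be told apart. Id1, a direct target gene of BMP signalling, stood at 112 to 171 normalized counts in controls, 2700 to 2970 with BMP2, 1960 to 3510 with BMP4, 667 to 1070 with BMP5 and 1480 to 2330 with BMP7. With BMP3 it stood at 124 to 136, within the range of the controls. Its rise was not particular to BMP ligands, since Id1 also rose with Tgfb, as given below. Normalized counts summed to between 19250832 and 20518942 in the controls, 26268636 and 29004576 with BMP2 and 25574455 and 26979289 with BMP4. Setting all samples to the same total moved the median log2 change of all genes by -0.45 with BMP2 and by -0.39 with BMP4, and changes that depended on this are given with both values.

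Of the 10 genes, 4 were called higher and 5 lower with BMP2, against 36.8% and 38.4% of the 14746 genes tested. With BMP4, 9 were called higher and 0 lower, where 33.7% of all genes were called higher and 31.4% lower. The median log2 change of the 10 genes was -0.38 with BMP2, against -0.03 over all genes tested, and 2.47 with BMP4, against 0.04. Of all called genes 48.9% were higher with BMP2 and 51.7% with BMP4, shares that became 31.8% and 31.1% at the same total in every sample.

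BMP5 raised 3 of the genes and lowered 3, beside 16.5% and 9.87% of all genes tested. BMP7 raised 3 and lowered 4, beside 19.2% and 13.2%. The replicate number as a block took the number of genes called lower from 1455 to 2593 with BMP5 and from 1940 to 3148 with BMP7, and added Fabp1 with BMP5 and Slc27a4 with BMP7 to the calls. Of all called genes 62.5% were higher with BMP5, which became 51.1% after quantile normalization. The share with BMP7 was 59.4%, which became 48.7% at the same total and 49.7% after quantile normalization. Left-out samples lowered the counts too: the genes lower with BMP5 were 713 without BMP5 replicate III and 825 without BMP5 replicate VI, and those lower with BMP7 were 1209 without BMP7 replicate II. With BMP3, 0 of the 10 genes and 0% of all genes were called by limma, and edgeR on the recovered reads called 0 genes as well, while DESeq2 called 1. At an unadjusted p under 0.05 there were 110 genes with BMP3 and 0 of the 10, whose lowest unadjusted p was 0.454.

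All 10 genes differed among the 5 BMP ligands in limma's moderated F-test, as did 84.1% of the genes tested. Between BMP2 and BMP4 all 10 were called, with Acsbg1 and Acsl3 higher with BMP2 and the other 8 lower, where 33.4% of all genes were called in each direction. Of the remaining pairs of ligands, BMP3 and BMP2 differed in 9 of the genes (73.5% of all genes), BMP5 and BMP2 in 9 (65%), BMP7 and BMP2 in 9 (62.8%), BMP4 and BMP3 in 9 (63.6%), BMP5 and BMP3 in 5 (23.7%), BMP7 and BMP3 in 6 (29.5%), BMP5 and BMP4 in 8 (60.1%) and BMP7 and BMP4 in 9 (59.8%). The replicate block added Scarb1 to BMP5 and BMP3 (adjusted p = 0.0126), Fabp1 and Slc27a4 to BMP7 and BMP3 (0.0364 and 0.00157) and Acsl3 to BMP5 and BMP4 (0.0129). BMP7 and BMP5 differed in 0 of the 10 by limma and in 0.0136% of all genes, which does not show that they act alike. Every ligand was set against the same 4 controls, so the comparisons with control are not independent of each other.

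**Figure D1:**
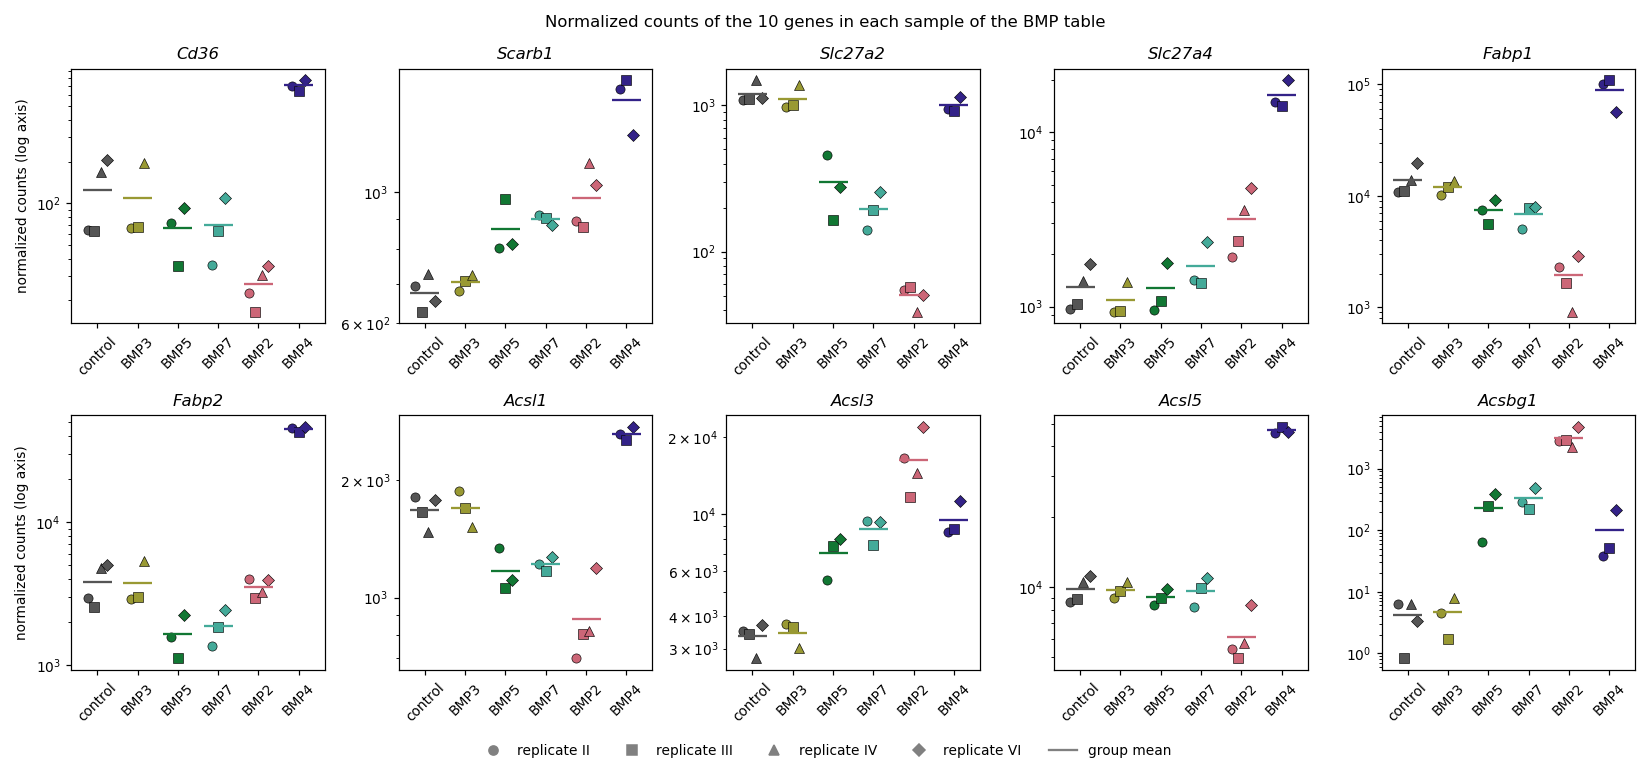
Normalized counts (vertical log axis, 1 panel a gene with its own range) in each sample of the BMP table, by group. Points are samples, marked by replicate number, and the line is the group mean. Cd36, Fabp1, Fabp2, Slc27a4, Acsl1, Acsl5 and Scarb1 are highest with BMP4, Acsl3 and Acsbg1 are highest with BMP2, and Slc27a2 is lowest with BMP2.

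Promoter sequences are shown for Fabp1, Cd36 and Fabp2, some of the genes of fatty acid uptake and binding that were highest with BMP4. Slc27a4, another such gene, is not shown. The sequence of Acsbg1, which was highest with BMP2, is also given. They are the 250 bases before the annotated start, 5′ to 3′ on the strand of the gene, from RefSeq on the build GRCm38.p6. The submitters' processing notes name GRCm39, so the coordinates belong to the sequence table and not to the expression data. A window was found for 9 of the 10 genes, and Acsl1 had 2. Capitals in Fabp1, Cd36 and Fabp2 mark matches to a direct repeat, which is AGGTCA given again after 1 base of any kind, on either strand with at most 3 mismatches, the kind of element that HNF4 and PPAR proteins bind. Capitals in Acsbg1 mark a match to the element CAAAGTCCA, another HNF4-type sequence.
Fabp1 (chr6:71199629-71199878, plus strand): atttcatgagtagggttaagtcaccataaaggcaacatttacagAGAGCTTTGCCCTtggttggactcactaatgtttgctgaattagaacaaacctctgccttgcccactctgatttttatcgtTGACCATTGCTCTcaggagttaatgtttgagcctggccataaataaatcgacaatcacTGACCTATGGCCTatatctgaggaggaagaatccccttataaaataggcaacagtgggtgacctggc
Cd36 (chr5:17835897-17836146, minus strand): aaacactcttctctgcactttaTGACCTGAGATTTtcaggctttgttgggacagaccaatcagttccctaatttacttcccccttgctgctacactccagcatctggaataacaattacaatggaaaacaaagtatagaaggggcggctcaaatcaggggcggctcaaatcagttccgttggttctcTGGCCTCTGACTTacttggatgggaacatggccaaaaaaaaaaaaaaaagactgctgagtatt
Fabp2 (chr3:122894822-122895071, plus strand): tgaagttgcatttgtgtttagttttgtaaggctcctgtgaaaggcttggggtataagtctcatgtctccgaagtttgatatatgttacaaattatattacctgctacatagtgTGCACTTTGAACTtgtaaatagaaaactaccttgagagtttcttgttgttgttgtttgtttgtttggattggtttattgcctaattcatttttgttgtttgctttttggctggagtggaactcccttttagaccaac
Acsbg1 (chr9:54661886-54662135, minus strand): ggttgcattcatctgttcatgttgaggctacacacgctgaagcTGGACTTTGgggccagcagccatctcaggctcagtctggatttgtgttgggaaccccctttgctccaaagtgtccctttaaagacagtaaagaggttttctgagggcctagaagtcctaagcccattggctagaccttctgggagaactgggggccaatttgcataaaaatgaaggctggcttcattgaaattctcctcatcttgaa
Of the 9 genes with a window, Fabp1, Cd36, Fabp2, Slc27a2 and Acsl5 held the direct repeat, and so did 21.3% of the 32851 windows of all genes. Slc27a4, Acsl1, Acsl3 and Acsbg1 did not hold it, although Slc27a4 and Acsl1 were also highest with BMP4. Slc27a2, which held it, was not raised by BMP4. Fabp1 held it 3 times, and the copy at 67 to 55 bases before the start, TGACCTATGGCCT, had 1 mismatch. In Cd36 the copy nearest the start had 2 mismatches. CAAAGTCCA, searched on both strands with at most 1 mismatch, was in 7.05% of all windows. It matched Acsbg1 without a mismatch, and in Fabp2 its match with 1 mismatch lay within the direct repeat. GTCTAGAC, a Smad box palindrome, was in 5.44% of all windows with at most 1 mismatch and matched Acsbg1 alone among these genes. The HNF1 element, GTTAAT followed after 1 base by ATTAAC, with at most 3 mismatches, was in 7.58% of windows and in Fabp1, and overlapped none of the marked copies. The GC-rich BMP element GGCGCC was in 9.59% of windows and in 1 of the windows of Acsl1, and the GATA site AGATAA was in 9.99% of windows and in no window of these genes. A match describes letters in a window and does not show that a factor binds there. No match says only that these letters are not in the window.

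Cd36 (ENSMUSG00000002944), a surface receptor that takes up long-chain fatty acids and was earlier named fatty acid translocase, had its highest level with BMP4 and its lowest with BMP2. In what follows values are ordered by the replicate number in the sample titles, which is II, III, IV and VI for controls and BMP2, II, III and IV for BMP3, and II, III and VI for BMP4, BMP5 and BMP7. Cd36 stood at 64.8, 63.1, 168 and 207 normalized counts in the controls and at 702, 651 and 774 with BMP4. Its level with BMP2 was 22.7, 16.6, 30.6 and 35.4, below every control, and all BMP4 samples were above every other sample. Control replicates IV and VI were well above II and III, and BMP3 repeated this with 66.7, 67.6 and 196. The mean with BMP4 was 5.64-fold that of the controls (log2 change 2.68, SE 0.48, adjusted p = 8.26e-05), and with BMP2 it was 4.78-fold lower (log2 change -2.07, SE 0.45, adjusted p = 3.82e-04). Within replicate numbers the ratio of BMP4 to control was 10.8 for II, 10.3 for III and 3.74 for VI. With BMP5, Cd36 was at 72.7, 35.2 and 93.1, and with BMP7 at 36.3, 62.9 and 110, and neither differed from control in the test (adjusted p = 0.242 and 0.228). In the order of group means, BMP4 came first, then control, BMP3, BMP7, BMP5 and BMP2. Only the first step, from BMP4 to control, and the last, from BMP5 to BMP2 (adjusted p = 0.0288, with samples that overlapped), passed the test.

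Scarb1 (ENSMUSG00000037936), the receptor SR-BI for high-density lipoprotein, which also takes part in lipid uptake at the brush border, rose with 4 of the 5 BMP ligands. It stood at 693, 627, 727 and 655 normalized counts in the controls, and at 1500, 1550 and 1250 with BMP4. With BMP2 it stood at 893, 873, 1120 and 1030, with BMP5 at 804, 973 and 817, with BMP7 at 916, 905 and 879 and with BMP3 at 680, 708 and 725. No sample of BMP2, BMP4, BMP5 or BMP7 fell within the range of the controls, and BMP4 was above all other groups. The log2 change was 1.08 with BMP4 (SE 0.10, adjusted p = 3.76e-08), 0.53 with BMP2 (SE 0.09, adjusted p = 5.02e-05), 0.42 with BMP7 (adjusted p = 0.00415) and 0.35 with BMP5 (adjusted p = 0.0150). At the same total in every sample the change was 0.68 with BMP4, still called, and 0.07 with BMP2 (adjusted p = 0.544), so the call of Scarb1 with BMP2 was lost there. The BMP5 call was lost without BMP5 replicate III (log2 change 0.26, adjusted p = 0.113). BMP4 and BMP2 differed (log2 0.55, adjusted p = 9.93e-05), and the later steps of the order, from BMP2 to BMP7, BMP5, BMP3 and control, did not pass the test.

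Slc27a2 (ENSMUSG00000027359), a fatty acid transport protein that also activates very long-chain fatty acids, was the only member that BMP4 did not raise. The controls were at 1090, 1100, 1490 and 1120 normalized counts, and BMP4 at 951, 923 and 1140. BMP2 samples were at 54.5, 57.5, 38.8 and 50.6, which is 23.8-fold lower in the mean than control. BMP5 gave 457, 165 and 276 and BMP7 140, 194 and 256, both below every control and above every BMP2 sample. BMP3 gave 976, 1000 and 1370, within and just under the range of the controls. On the log2 scale the change was -4.55 with BMP2 (SE 0.24, adjusted p = 6.79e-12), -2.63 with BMP7 (SE 0.26, adjusted p = 6.35e-07) and -2.11 with BMP5 (SE 0.26, adjusted p = 1.04e-05). With BMP4 it was -0.25 (95% interval -0.80 to 0.30, adjusted p = 0.419), and -0.65 (adjusted p = 0.0400) at the same total in every sample. Control, BMP3 and BMP4, the first 3 in the order of means, did not differ, nor did BMP5 and BMP7, while BMP4 to BMP5 and BMP7 to BMP2 were steps that passed the test (adjusted p = 1.39e-05 and 4.34e-06).

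Slc27a4 (ENSMUSG00000059316), the fatty acid transport protein most associated with enterocytes, was raised by both BMP2 and BMP4. It stood at 973, 1040, 1400 and 1750 normalized counts in controls, at 1920, 2370, 3570 and 4810 with BMP2 and at 14900, 14200 and 19900 with BMP4. BMP2 samples lay above every control and BMP4 samples above every BMP2 sample. Its log2 change was 3.68 with BMP4 (SE 0.30, adjusted p = 6.57e-09), a 12.7-fold higher mean, and 1.24 with BMP2 (SE 0.28, adjusted p = 5.06e-04), a 2.45-fold higher mean. At the same total the BMP2 change was 0.78 (adjusted p = 0.0128). BMP7 gave 1430, 1370 and 2350, BMP5 954, 1080 and 1790, and BMP3 935, 950 and 1380, all overlapping the controls. The log2 change with BMP7 was 0.41 (adjusted p = 0.315), and with the replicate number as a block it was 0.48 (adjusted p = 0.00193). Each BMP7 sample was above the control of its own number. After BMP4 and BMP2 the order of means was BMP7, control, BMP5 and BMP3, where no step passed the test without the block.

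Fabp1 (ENSMUSG00000054422), the liver-type fatty acid binding protein, which is also abundant in the proximal gut, had the widest gap between BMP4 and BMP2 of the genes that fell with BMP2. The controls stood at 10800, 11000, 13900 and 19600 normalized counts. BMP4 samples were at 101000, 109000 and 57000 and BMP2 samples at 2320, 1640, 912 and 2900. All BMP4 samples were above, and all BMP2 samples below, every sample of the other groups. The log2 change was 2.67 with BMP4 (SE 0.33, adjusted p = 9.47e-07) and -2.91 with BMP2 (SE 0.30, adjusted p = 5.79e-08), and BMP4 was 45.8-fold above BMP2 in the mean. Replicate VI had the highest control and the lowest BMP4 value, so its ratio of BMP4 to control was 2.91, against 9.35 for II and 9.91 for III. BMP5 gave 7420, 5590 and 9190, BMP7 5080, 7730 and 7880, and BMP3 10100, 12100 and 13600. Samples of BMP5 and BMP7 were all below the controls, and the log2 change was -0.99 with BMP7 (adjusted p = 0.0268) and -0.89 with BMP5 (adjusted p = 0.0524). The BMP5 change was called in 9 of 17 alternatives. Among them were the replicate number as a block (-0.98, adjusted p = 0.0272) and the same total (-0.93, adjusted p = 0.0386). The BMP7 call was lost without BMP7 replicate II (adjusted p = 0.136), control VI (0.0850) or control IV (0.0509). Control, BMP3, BMP5 and BMP7 followed BMP4 in the order of means, with no step among them that passed the test.

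Fabp2 (ENSMUSG00000023057), the intestinal-type binding protein, is found in enterocytes and in few other cells. Its controls were at 2930, 2570, 4760 and 5010 normalized counts and its BMP4 samples at 45400, 42600 and 46600, an 11.8-fold higher mean (log2 change 3.61, SE 0.27, adjusted p = 2.59e-09). Every BMP4 sample was above all others by more than the whole spread of the controls. With BMP2, Fabp2 stood at 4010, 2970, 3240 and 3940, inside the range of the controls, and its log2 change was -0.06 (95% interval -0.59 to 0.47, adjusted p = 0.838). BMP5 gave 1580, 1120 and 2240 and BMP7 1360, 1840 and 2450, all below the controls and below BMP2. Its mean was 2.32-fold lower with BMP5 (log2 change -1.21, SE 0.27, adjusted p = 0.00271) and 2.03-fold lower with BMP7 (SE of the log2 change 0.27, adjusted p = 0.00854). The BMP7 call was lost without BMP7 replicate II (-0.79, adjusted p = 0.0653). BMP3 gave 2910, 3020 and 5330. The order of means was BMP4, control, BMP3, BMP2, BMP7 and BMP5, in which the steps from BMP4 to control and from BMP2 to BMP7 (adjusted p = 0.00567) passed the test.

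**Figure D2:**
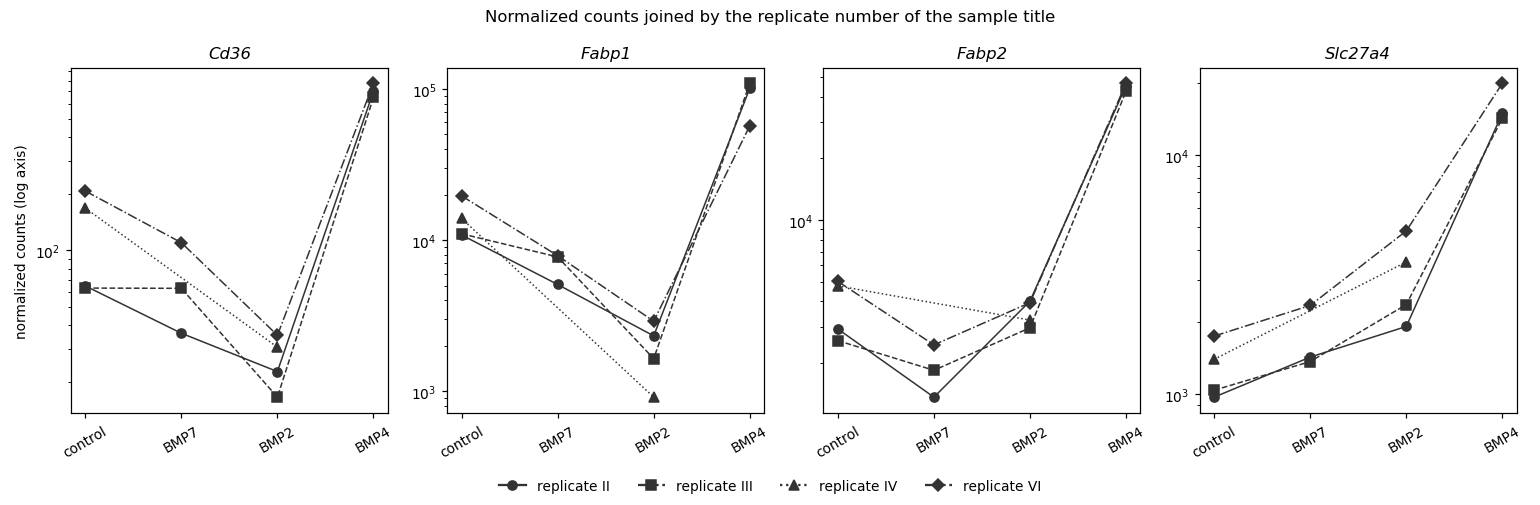
Normalized counts (vertical log axis) of Cd36, Fabp1, Fabp2 and Slc27a4 in controls, BMP7, BMP2 and BMP4, with samples of the same replicate number joined by a line. Control replicates IV and VI lie above II and III for all 4 genes, and the BMP4 values of Fabp2 (42600 to 46600) lie closer together on this axis than its controls (2570 to 5010).

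Acsl5 (ENSMUSG00000024981), a long-chain acyl-CoA synthetase of mitochondria and endoplasmic reticulum that is abundant in the small intestine, rose with BMP4 and fell with BMP2. The controls were at 8610, 8910, 10500 and 11100 normalized counts, BMP4 at 45800, 48600 and 46300, and BMP2 at 5430, 4950, 5740 and 8330. All BMP4 samples were above and all BMP2 samples below the controls. Acsl5 changed by a log2 of 2.27 with BMP4 (SE 0.15, adjusted p = 4.86e-10) and -0.70 with BMP2 (SE 0.14, adjusted p = 1.37e-04), and the BMP2 value was -1.16 at the same total and -1.28 after quantile normalization. BMP3 gave 8980, 9570 and 10500, BMP5 8370, 8990 and 9830, and BMP7 8180, 9870 and 10900. Samples of these 3 ligands overlapped the controls. Their log2 changes were -0.01 (95% interval -0.32 to 0.30), -0.10 (-0.41 to 0.20) and -0.02 (-0.33 to 0.29), and no step among control, BMP3, BMP7 and BMP5 passed the test. From BMP5 to BMP2 the step did (adjusted p = 0.00170).

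Acsl1 (ENSMUSG00000018796), a long-chain acyl-CoA synthetase known from fat, liver and muscle, moved in the same directions as Acsl5 with BMP4 and BMP2. Its change was smaller than that of Acsl5 with BMP4, but not with BMP2. Its controls stood at 1810, 1660, 1470 and 1780 normalized counts. BMP4 gave 2620, 2530 and 2740, above all controls, and BMP2 gave 699, 808, 822 and 1190, below all of them. BMP5 at 1340, 1060 and 1110 and BMP7 at 1220, 1170 and 1270 were also below all controls, and BMP3 at 1880, 1700 and 1520 was not. Acsl1 changed by a log2 of -0.96 with BMP2 (SE 0.13, adjusted p = 1.63e-06), -0.52 with BMP5 (adjusted p = 0.00844) and -0.46 with BMP7 (adjusted p = 0.0162). With BMP4 it was 0.65 (SE 0.14, adjusted p = 4.14e-04), 0.33 (adjusted p = 0.0166) after quantile normalization and 0.25 (adjusted p = 0.0722) at the same total, where the call was lost. The BMP5 call was lost without BMP5 replicate III (adjusted p = 0.0554) and the BMP7 call without BMP7 replicate III (adjusted p = 0.0506). In the order of means BMP4 was followed by BMP3, control, BMP7, BMP5 and BMP2, and all steps passed the test but those from BMP3 to control and from BMP7 to BMP5.

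Acsl3 (ENSMUSG00000032883), a long-chain acyl-CoA synthetase of the endoplasmic reticulum and of lipid droplets, was raised by every ligand but BMP3. The controls were at 3520, 3420, 2750 and 3700 normalized counts and BMP3 at 3730, 3640 and 3010. BMP2 gave 16600, 11700, 14500 and 21900, above every sample of the other groups. BMP4 gave 8510, 8720 and 11200, BMP7 9440, 7570 and 9310, and BMP5 5540, 7540 and 8010, each above every control. The log2 change was 2.24 with BMP2 (SE 0.17, adjusted p = 5.79e-10), 1.39 with BMP7 (SE 0.18, adjusted p = 1.14e-05) and 1.06 with BMP5 (SE 0.18, adjusted p = 2.47e-04). BMP4 gave a mean 2.83-fold that of the controls (adjusted p = 8.12e-07). Acsl3 was 1.71-fold higher with BMP2 than with BMP4 (log2 0.75, adjusted p = 0.00133), and the steps from BMP4 to BMP7 and from BMP7 to BMP5, next in the order of means, did not pass the test, while that from BMP5 to BMP3 did (adjusted p = 8.72e-04).

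Acsbg1 (ENSMUSG00000032281), a long-chain acyl-CoA synthetase of the bubblegum family known from brain, adrenal gland and testis, was close to absent without a ligand. In the controls it was at 6.22, 0.83, 6.21 and 3.30 normalized counts, a few reads per sample, and with BMP3 at 4.45, 1.69 and 7.88. BMP2 gave 2840, 2870, 2210 and 4820, and its lowest sample was far above the highest of any other group, 483 with BMP7. BMP7 gave 287, 217 and 483, BMP5 64.6, 244 and 388, and BMP4 37.9, 51.3 and 215, all above every control and BMP3 sample. Acsbg1 changed by a log2 of 9.41 with BMP2 (SE 0.60, adjusted p = 6.46e-11), 6.12 with BMP7 (SE 0.64, adjusted p = 1.25e-06), 5.36 with BMP5 (SE 0.64, adjusted p = 7.82e-06) and 4.08 with BMP4 (SE 0.64, adjusted p = 2.00e-05). With controls of so few reads these sizes depend on the pseudocount, and the BMP4 change was 2.64 with a pseudocount of 10. BMP4 replicate VI was well above the other BMP4 samples, and without it the change was 3.33. The order of means was BMP2, BMP7, BMP5, BMP4, BMP3 and control. The steps from BMP2 to BMP7 (adjusted p = 2.22e-04) and from BMP4 to BMP3 (adjusted p = 7.02e-05) passed the test, while BMP7 to BMP5 and BMP5 to BMP4 (adjusted p = 0.119) did not. BMP2 was 31.4-fold above BMP4 in the mean (log2 5.33, SE 0.64, adjusted p = 7.04e-07), the reverse of the difference in Cd36, Fabp1, Fabp2, Slc27a2, Slc27a4, Acsl1, Acsl5 and Scarb1.

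Set beside Acsl5 in each sample, normalized counts of Acsbg1 were 0.00932% to 0.0722% of those of Acsl5 in controls and 0.0828% to 0.464% with BMP4. With BMP2 they were 38.5% to 58.0%, with BMP5 0.772% to 3.95% and with BMP7 2.20% to 4.43%. These are shares within a sample, not divided by gene length, so they describe how the balance moved between groups and not which enzyme was more abundant. The BMP2 samples were apart from all others, and BMP4, which raised both genes, left Acsbg1 under 1% of Acsl5 in all 3 samples.

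**Figure D3:**
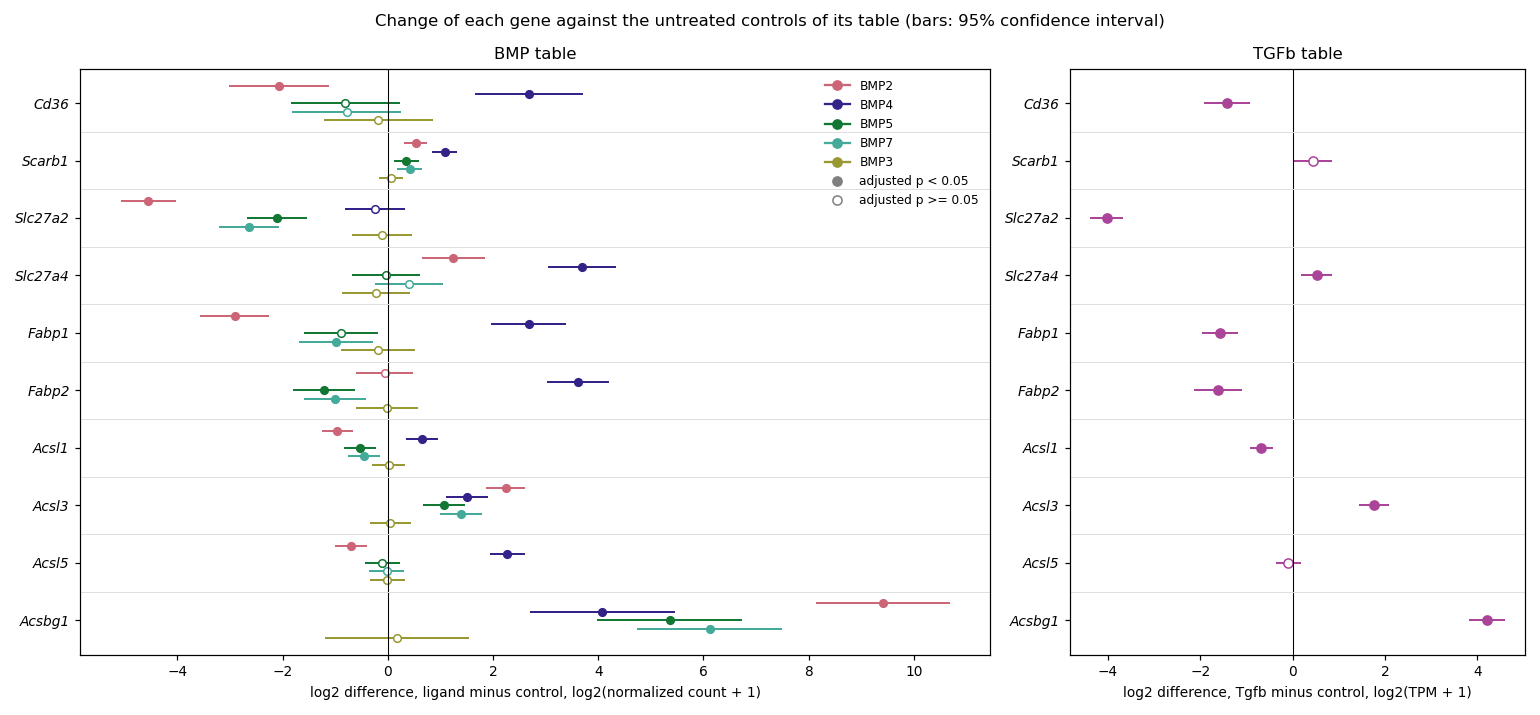
Log2 change of each gene (horizontal axis, ligand minus untreated control) with its 95% confidence interval, for the 5 BMP ligands on the left and Tgfb on the right. Filled points are called and open points are not. BMP4 lies to the right for every gene but Slc27a2, Acsbg1 with BMP2 lies farthest right at 9.41, and Slc27a2 with BMP2 lies farthest left at -4.55.

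The TGFb table holds TPM, which are transcript levels divided by length and scaled to the same sum in each sample, so levels of different genes can be compared there. Their depth is unknown, since TPM does not retain it. Tests covered 12959 genes, and the 3 controls belonged to this table alone. In these controls Fabp1 was the most abundant of the 10 genes at 3077 ± 631 TPM (SD, n = 3), followed by Fabp2 at 376 ± 45.6 and Acsl5 at 343 ± 17.2, whose samples overlapped. Acsl3 at 80.5 ± 8.75, Slc27a2 at 49.0 ± 1.49, Acsl1 at 31.5 ± 3.00 and Slc27a4 at 20.4 ± 1.95 came next. Scarb1 was at 15.4 ± 3.35 and Cd36 at 3.64 ± 0.675. Acsbg1 was listed at 0.0146, 0.0172 and 0 TPM. Acsl5 was thus the most abundant of the acyl-CoA synthetases among the 10 genes in untreated organoids, and the ranges of its samples and those of Acsl3 did not overlap.

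Tgfb raised 3 of the 10 genes and lowered 5, where 27.4% of all genes tested were called higher and 29.3% lower. The median log2 change of the 10 genes was -0.38, against -0.04 over all genes. Id1 was at 7.71 to 9.71 TPM in controls and at 49.5 to 79.2 with Tgfb (log2 change 2.75, adjusted p = 5.29e-05). Slc27a2 fell from 49.0, 50.5 and 47.6 TPM, in the order of replicates I, II and III, to 2.64, 1.51 and 2.18 with Tgfb (log2 change -4.02, SE 0.14, adjusted p = 6.76e-06). Fabp1 fell from 2891, 2560 and 3780 to 1033, 1061 and 982 TPM (log2 change -1.57, SE 0.15, adjusted p = 2.58e-04). Fabp2 fell from 347, 352 and 428 to 97.6, 111 and 166 (log2 change -1.61, SE 0.21, adjusted p = 8.50e-04). Tgfb samples of all 3 genes were below every control. Cd36 fell from 4.10, 2.86 and 3.96 to 0.782, 0.444 and 0.978 TPM (log2 change -1.42, SE 0.19, adjusted p = 0.00114), and its size at these low levels depended on the pseudocount, with -2.20 at 0.1 and -0.34 at 10. Slc27a2 was likewise at -2.29 with a pseudocount of 10. Acsl1 fell from 28.2, 32.4 and 34.0 to 19.7, 17.9 and 20.5 TPM (log2 change -0.67, SE 0.09, adjusted p = 0.00122).

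Acsbg1 rose from the values near 0 given above to 15.4, 16.6 and 22.1 TPM with Tgfb, and all 3 Tgfb samples were above all controls. Its log2 change was 4.22 (SE 0.15, adjusted p = 7.63e-06), with 7.34 and 1.48 at pseudocounts of 0.1 and 10, so it measures little but the level reached. Acsl3 rose from 70.8, 87.8 and 83.0 to 244, 272 and 316 TPM (log2 change 1.77, SE 0.13, adjusted p = 7.27e-05), again with no overlap. Slc27a4 stood at 19.3, 19.2 and 22.7 TPM in controls and 26.1, 28.3 and 35.3 with Tgfb (log2 change 0.52, adjusted p = 0.0140), a call that was lost without control II (adjusted p = 0.0562) or control I (0.0554). Acsl5 stood at 330, 337 and 362 TPM and at 284, 323 and 361 with Tgfb (log2 change -0.09, 95% interval -0.34 to 0.16, adjusted p = 0.475). Scarb1 stood at 19.2, 14.2 and 12.8 TPM and at 18.6, 20.7 and 24.0 (log2 change 0.44, 95% interval 0.04 to 0.84, adjusted p = 0.0591). It was called without control I (adjusted p = 0.0166) and over genes at a mean of at least 10 TPM (0.0444). With Tgfb, Acsbg1 at 18.1 ± 3.57 TPM overlapped Acsl1 at 17.9 to 20.5 TPM, and was 5.13% to 6.12% of Acsl5. No test set the BMP and TGFb tables against each other, because they were scaled separately.

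**Figure D4:**
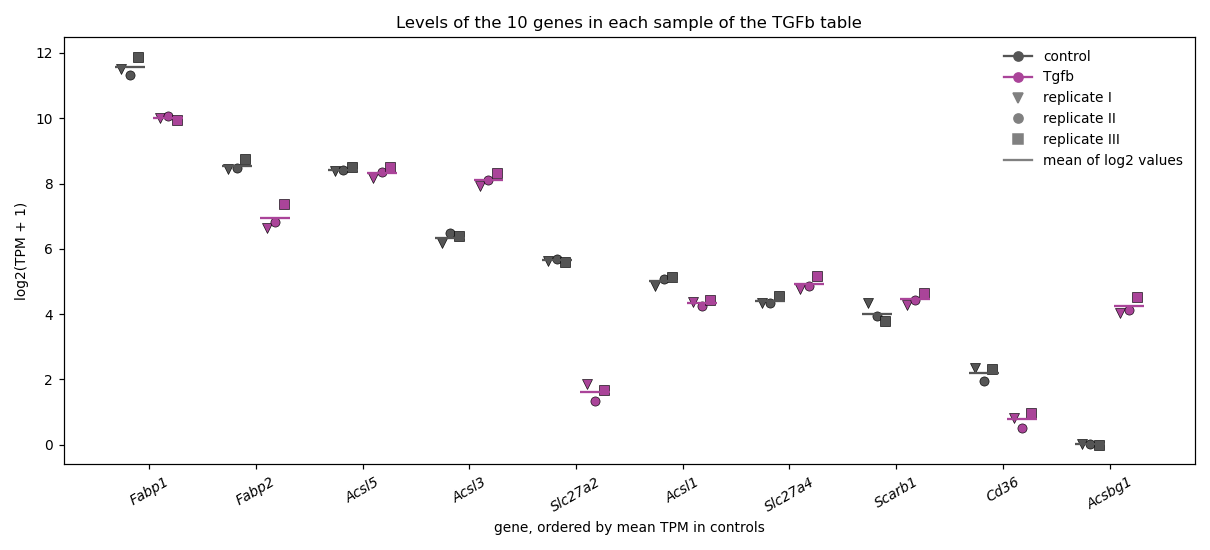
Levels as log2(TPM + 1) (vertical axis) of the 10 genes in each of the 6 samples of the TGFb table, ordered by mean TPM in controls. Points are samples, marked by replicate number, and lines are means of the log2 values. Slc27a2 drops from 47.6 to 50.5 TPM in controls to 1.51 to 2.64 with Tgfb, and Acsbg1 rises from near 0 to the level of Acsl1.

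Markers of the cell types that the organoids can hold also differed between groups. Counts of called markers stand beside 36.8% of all genes higher and 38.4% lower with BMP2, and 33.7% and 31.4% with BMP4. These shares were 16.5% and 9.87% with BMP5, 19.2% and 13.2% with BMP7, and 27.4% and 29.3% with Tgfb. The goblet cell counts with BMP2 lie near their shares. Of 12 enterocyte markers, 11 rose and 0 fell with BMP4, and 3 rose and 7 fell with BMP2. Their summed level was 81899 to 131934 normalized counts in controls, 438040 to 486240 with BMP4 and 112225 to 209259 with BMP2. Krt20, a keratin of mature villus cells, was at 63525 ± 14654 normalized counts with BMP2 (SD, n = 4) and 2088 ± 629 in controls, while Anpep, Slc5a1 and Sis, a peptidase, a glucose transporter and a sucrase of the brush border, fell with BMP2 (log2 changes -4.35, -4.13 and -3.89). These 4 were picked after their values were seen. Stem cell markers summed to 137973 to 165395 in controls, 12198 to 22256 with BMP2 and 8659 to 11032 with BMP4. Of these 7 markers 0 rose and 6 fell with BMP2, and 0 rose and 6 fell with BMP4. Of 7 Paneth cell markers 0 rose and 6 fell with BMP2, and 0 rose and 1 fell with BMP4. Of 7 goblet cell markers 3 rose and 3 fell with BMP2, and 5 rose and 1 fell with BMP4, and of 7 enteroendocrine markers 5 rose and 1 fell with BMP2. With BMP7 the stem cell sum was 52833 to 62789 and with BMP5 64259 to 126394. Only some of the 7 stem cell markers were called there: 1 rose and 3 fell with BMP7, and 1 rose and 1 fell with BMP5. Of the enterocyte markers 2 rose and 6 fell with BMP7, and 2 rose and 5 fell with BMP5. In the BMP table mesenchyme markers summed to at most 54.2 normalized counts in any sample, with no value above 0 for Dcn and Lum, and none for Adipoq and Lep of the adipocyte list. Cidec, a lipid droplet protein on that list, rose with BMP2 and BMP4 (log2 changes 3.11 and 3.21). Endothelium markers were not near 0, and summed to 571 to 777 normalized counts in controls, 840 to 1036 with BMP2 and 866 to 1034 with BMP4. Leukocyte markers summed to 30.2 to 50.7 in controls, 74.1 to 168 with BMP2 and 27.6 to 64.0 with BMP4. With Tgfb, 5 enterocyte markers rose and 7 fell, while their sum was 3344 to 4602 TPM against 2317 to 3134 in controls. Of the stem cell markers 1 rose and 6 fell with Tgfb. The stem cell sum was 418 to 432 TPM with Tgfb against 2868 to 3359 in controls. Enteroendocrine markers summed to 477 to 777 TPM with Tgfb against 133 to 151, and of these 7 markers 3 rose and 1 fell. Of the goblet cell markers 0 rose and 6 fell with Tgfb. The part of these cell types in the changes of the 10 genes was not tested.

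Other genes of fatty acid handling were followed through fixed lists. The background is that of the 10 genes, with 33.7% of all genes higher and 31.4% lower with BMP4, and 36.8% and 38.4% with BMP2. Of 10 other uptake and binding genes tested, 4 rose and 4 fell with BMP4, and 2 rose and 6 fell with BMP2. The 4 that fell with BMP4 were 2 without BMP4 replicate II. Scp2, a sterol and lipid carrier, rose with BMP4 from 2603 ± 609 to 7993 ± 276 normalized counts. With BMP2 its log2 change was -0.47 (adjusted p = 0.0179), a call lost in 4 of 18 alternatives. Got2, a mitochondrial enzyme also described as a membrane fatty acid binding protein, fell with BMP2 from 3270 ± 237 to 1285 ± 269. With BMP4 it was at 0.30 (adjusted p = 0.0536), and was called in 4 of 17 alternatives. Mfsd2a, a lysophospholipid transporter, rose with both (log2 changes 1.53 with BMP4 and 1.46 with BMP2). Of 10 other acyl-CoA synthetases tested, 3 rose and 3 fell with BMP4, and 0 rose and 6 fell with BMP2, while Acsl3 and Acsbg1 were called higher. At the same total 1 of these 10 rose with BMP4, and with DESeq2 5 did. With BMP2, 1 rose under the replicate block, DESeq2 or quantile normalization. Acss1, which activates acetate in mitochondria, fell with BMP2 from 2240 ± 170 to 62.2 ± 23.8 normalized counts, and fell less with BMP4 (log2 change -1.22). Acsm3, of the medium-chain synthetases, fell with BMP2 and BMP4 (log2 changes -1.92 and -1.52). Acsf2 rose with BMP4 (log2 change 1.25) and fell with BMP2 (-1.41).

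Acyl-CoA thioesterases, which release the fatty acid from coenzyme A again, rose in 10 of 11 with BMP4 and fell in 0, with a median log2 change of 1.51 against 0.04 over all genes. With BMP2, 6 of them rose and 4 fell, and at the same total 2 rose. Acot12 rose with BMP4 from 7.63 ± 4.90 to 239 ± 93.0 normalized counts and Acot4 from 436 ± 125 to 2783 ± 240. With BMP2, Acot12 rose too (log2 change 3.31) and Acot4 fell (-1.98). Acot9 rose with BMP2 from 440 ± 49.7 to 4982 ± 431, and Acot1 fell with BMP2 from 856 ± 89.8 to 25.9 ± 15.2. With BMP4, Acot9 rose too (log2 change 1.75), and Acot1 was not called (0.23, adjusted p = 0.474). The Acot genes include near-identical copies between which reads can be split, so values of single members such as Acot1 and Acot4 are uncertain. Of 19 regulators tested, 15 rose and 2 fell with BMP4, and 4 rose and 8 fell with BMP2. At the same total 4 fell with BMP4 and 14 with BMP2, and without BMP2 replicate II 7 rose with BMP2. Creb3l3 and Pparg, transcription factors of lipid metabolism, rose with BMP4 (log2 changes 2.91 and 2.62) and with BMP2 (1.44 and 2.28). Ppara and Ppargc1a, which drive fatty acid oxidation genes, fell with BMP2 (log2 changes -2.84 and -2.63) and rose with BMP4 (2.07 and 1.86). Hnf4g, named here after its values were seen, rose with BMP4 (log2 change 2.34) and fell with BMP2 (-1.76). Hnf4a rose with BMP4 (1.01) and was at 0.17 with BMP2 (adjusted p = 0.217). Whether any of these regulators acts on the 10 genes was not tested. Of the fatty acid receptors 3 were tested, and Ffar4, a receptor for long-chain fatty acids, fell with both BMP4 and BMP2 (log2 changes -1.31 and -0.60). The BMP2 call was lost after quantile normalization (-0.22, adjusted p = 0.218).

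Likeness between genes was measured by Pearson's r of log2(value + 1) over the 20 samples of the BMP table, as a description, since the samples fall into 6 groups and share libraries and size factors. Among the 10 genes, Cd36 was most like Fabp1 (r = 0.934) and Acsl5 (0.928), and Acsbg1 was most like Acsl3 (0.936) and ran opposite to Slc27a2 (-0.901). Among 11856 genes, the 5 most like Cd36 were Lrrc19, Slc6a20a, Gpt, Slc26a6 and Mttp (r from 0.976 to 0.988). Mttp, the microsomal transfer protein that loads lipid onto chylomicrons, was at 16250 normalized counts in the mean of controls, 4690 with BMP2 and 78967 with BMP4. The 5 most like Fabp1 were Cyp2c68, Exoc3l4, Adh1, Chpt1 and Adh4 (r from 0.986 to 0.988), of which Adh1, an alcohol dehydrogenase, went from 9895 in controls to 1310 with BMP2 and 40300 with BMP4. The 5 most like Acsbg1 were Capn2, Trim29, Serpinb5, Sh3kbp1 and Ephb6 (r from 0.990 to 0.995). Trim29, a gene known from stratified epithelia, was at 15.9 normalized counts in controls, 4298 with BMP2 and 184 with BMP4, and Serpinb5, a serpin of the same tissues, at 301, 6990 and 1273. None of the 10 genes was among the 5 most like Cd36, Fabp1 or Acsbg1.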

How the data were processed

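RNA-seq of 26 organoid samples was used, and 2 mesenchymal samples of the series were not analysed here. The BMP file holds a signal that the authors deposited as normalized counts. Its low values are whole reads multiplied by 1 constant in each sample. Its high values are rounded, so the reads recovered for abundant genes, and their totals, are approximate. The TGFb file holds TPM as deposited by the authors. The submitters' processing notes name Trim Galore, Salmon, DESeq2 and GRCm39, with no roles or versions, and 0 per-sample columns of these files were left unmapped. Whole reads could be recovered from 100% of 180721 low values (up to 20 reads, within 0.06 of a read), with 0.826 to 1.279 normalized counts per read.

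Values were tested as log2(value + 1) with limma 3.58.1 in R 4.3.3, over genes with a mean of at least 10 normalized counts or 1 TPM, with Benjamini-Hochberg adjustment and a threshold of 0.05. The BMP fit used all 6 groups, so that they shared one estimate of the spread. A count test was foreseen for raw counts only, so edgeR 4.0.16 and DESeq2 1.42.0 on recovered reads were alternatives, beside other pseudocounts, filters, scalings, the replicate block and leaving out each sample. The fit was also run on simulated counts with a fixed spread and few changed genes. These differ from the present data, so that run says nothing about the calls given here. Replicate numbers paired the samples of BMP3, BMP4, BMP5 and BMP7 with controls, since deviations from group means correlated above 0.1 for every number (lowest r 0.158). With BMP2 they did so for II, IV and VI (r 0.196, 0.421 and 0.308) but not for III (0.0182). With Tgfb they did so for no number (highest r 0.0696). The pairing was read from the values, and the labels do not assign samples to sequencing runs. The 10 genes and all lists were chosen with earlier results of these data known. From each list the text names the 2 called genes with the largest change with BMP4 and the 2 with BMP2, among genes with a mean of at least 50, and others are marked as picked later.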

Additional observations from a re-analysis of the deposited data

Results flagged for a closer look

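Slc27a2 in the untreated controls of the BMP table had 1 sample apart from the others. Replicate IV was at 1490 normalized counts, against 1090, 1100 and 1120 in the other 3, and its gap to the nearest sample was 0.925 of the range of the group, above Dixon's critical value for 4 samples. Of the groups of the 10 genes, 20 had 4 samples and were examined, and chance alone marks about 1 in 20 of such groups. The BMP2, BMP5 and BMP7 samples of Slc27a2 were below all 4 controls.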

How the results depend on the processing

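The 10 genes had 49 called values, which were recomputed under 800 alternatives in all. Of these, 789 kept direction and call, 11 kept the direction and lost the call, and 0 reversed. The 21 values not called had 348 alternatives. Of these, 335 stayed uncalled, 33 of them with the other sign, and 13 were called. With BMP3, 0 genes were called, and leaving out 1 sample at a time gave 0 to 1, with 1 without BMP3 replicate II. Fitting only BMP3 and its controls gave 3 genes and DESeq2 gave 1. With BMP5, 3884 genes were called, and leaving out samples gave 2515 (without BMP5 replicate III) to 4298 (without BMP5 replicate II), with 2532 without BMP5 replicate VI. The replicate block, a fit paired by replicate number, called 5738 genes with BMP5 and 6689 with BMP7, and 11858 with BMP2 and 10582 with BMP4. Against control it added Fabp1 with BMP5 and Slc27a4 with BMP7, between ligands it added the 4 calls given above, and it changed no other call of the 10 genes. Equal totals, edgeR and DESeq2 were not run on the TGFb table, which holds no counts. Values of Acsbg1 in untreated samples rest on a few reads, so the size of its changes is limited by depth and by the pseudocount.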
